A study of Mus musculus with 15 samples.

Results

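Transcripts of 10 genes of the inflammasome, the cytosolic platform that activates inflammatory caspases, were followed in mouse colon. The genes were taken by symbol from a table of 22063 genes, and all 10 were present, each in 1 row. They were the sensors Nlrp3, Nlrp6, Nlrc4, Naip1, Nlrp1b and Aim2, the adaptor Pycard, and the caspases Casp1, Casp4 and Casp8. RNA sequencing covered 15 libraries of colon from wild-type C57BL/6 mice in 3 groups of 5. One group was labelled WMW-H, in a series on the herbal formula Wumei Wan in mice with colorectal cancer. Another was labelled AOM/DSS, for azoxymethane, a carcinogen, and dextran sulfate sodium, which injures the colon epithelium. The last was labelled control. The label of WMW-H does not itself name AOM/DSS, and the meaning of the H is not given in the sources used here. Dose, schedule, age and sex were not given either, nor whether each library came from its own animal, so the p-values measure the spread between these libraries, which may be technical.

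In an inflammasome, a sensor that has met its ligand recruits the adaptor ASC, the product of Pycard, which gathers and activates caspase-1. Caspase-1 cleaves the precursors of interleukin 1 beta and interleukin 18 and opens gasdermin D, whose pores release both cytokines and can kill the cell. Caspase-11, the product of mouse Casp4, is activated by cytosolic lipopolysaccharide and also cleaves gasdermin D. In the colon, interleukin 18 is made largely by epithelial cells and is known for a role in repair. Transcript levels do not show whether any of these proteins was processed.

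Depth, read from the steps of low values, was 16400000 to 21100000 fragments per library. Levels are in FPKM, fragments per kilobase of transcript scaled to depth, and can therefore be compared between genes. Pairs of libraries correlated at 0.992 to 0.995 on the log2(FPKM + 1) scale inside a group and at 0.939 to 0.972 across groups, and WMW-H replicate 3 had the lowest mean correlation with its own group. The labels name colon epithelial cells. Epithelial markers (Epcam, Vil1, Cdh1, Krt8, Krt20, Cdx2) summed to 3904 to 4135 FPKM in WMW-H, 4421 to 4460 in AOM/DSS and 4599 to 4639 in control libraries. Krt8 was the largest part, with means of 2108.5, 2562.8 and 2709.4 FPKM in these groups. Epcam had another order and was highest in WMW-H, at 877.7, 825.1 and 732.9 FPKM. Markers of other cells were present too. Macrophage and monocyte markers summed to 381 to 403 FPKM in WMW-H, 480 to 488 in AOM/DSS and 222 to 240 in control libraries. Pancreatic enzyme genes summed to 6198 to 6621, 3609 to 3682 and 15647 to 15991 FPKM in the same groups, and seminal vesicle genes reached 2369 to 2506 FPKM in AOM/DSS alone, against at most 4.04 in WMW-H and 3.17 in control. In such bulk samples, fewer cells of a type and less RNA per cell cannot be told apart.

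Promoter sequences from RefSeq (GRCm38.p6) were available for all 10 genes, as 13 windows of 250 bases before to 50 after a start. For 4 genes a window each is shown, because these genes carried the differences described below. Casp1 and Casp4 are neighbours on chromosome 9 and were both lowest in AOM/DSS, Nlrp6 had the largest fall of the sensors, and Nlrp3 had the largest relative rise. The windows lie at chr9:5298267-5298566, chr9:5308599-5308898, chr7:140920652-140920951 and chr11:59541319-59541618, all on the plus strand, for Casp1, Casp4, Nlrp6 and Nlrp3 in that order. Capitals mark matches to the kappa B motif defined below, and the sequences run 5′ to 3′.
Casp1: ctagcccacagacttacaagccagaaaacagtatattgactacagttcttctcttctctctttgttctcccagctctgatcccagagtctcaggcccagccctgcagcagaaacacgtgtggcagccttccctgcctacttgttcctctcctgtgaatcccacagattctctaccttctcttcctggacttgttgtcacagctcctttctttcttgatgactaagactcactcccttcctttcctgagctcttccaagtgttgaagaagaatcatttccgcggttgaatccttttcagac
Casp4: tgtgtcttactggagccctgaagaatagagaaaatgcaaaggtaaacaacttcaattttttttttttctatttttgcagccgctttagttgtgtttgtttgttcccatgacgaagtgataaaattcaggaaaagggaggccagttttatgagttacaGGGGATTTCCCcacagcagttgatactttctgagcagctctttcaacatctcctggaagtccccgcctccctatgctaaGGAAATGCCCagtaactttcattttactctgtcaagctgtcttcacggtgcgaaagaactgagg
Nlrp6: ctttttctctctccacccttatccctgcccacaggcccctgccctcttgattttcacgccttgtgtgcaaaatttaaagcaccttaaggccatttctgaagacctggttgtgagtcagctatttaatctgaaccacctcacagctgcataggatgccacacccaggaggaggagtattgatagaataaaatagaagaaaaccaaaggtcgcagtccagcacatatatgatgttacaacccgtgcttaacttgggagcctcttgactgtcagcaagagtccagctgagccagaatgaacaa
Nlrp3: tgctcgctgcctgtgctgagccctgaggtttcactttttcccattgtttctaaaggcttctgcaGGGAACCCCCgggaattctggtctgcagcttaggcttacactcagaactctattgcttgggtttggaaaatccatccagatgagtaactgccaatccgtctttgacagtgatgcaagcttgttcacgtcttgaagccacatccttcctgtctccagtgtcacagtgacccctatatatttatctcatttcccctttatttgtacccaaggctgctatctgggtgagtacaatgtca
Motifs were searched on both strands, namely the core of the interferon-stimulated response element (GAAA, any 2 bases, GAAA), the gamma-activated site (TTC, any 3 bases, GAA) and the kappa B motif (GGG, any 2 bases, TT, any base, CC). None of the 10 genes had a match to the first or the second, which occurred in 3.44% and 8.3% of all 32851 promoter windows. Casp4 and Nlrp3 had kappa B matches, a motif present in 4.79% of the windows. In the windows shown, those of Casp4 began 93, 92 and 14 bases before the start, the first and second overlapping each other. That of Nlrp3 began 186 bases before its start. Another window of Casp4 held the same matches, at 104, 103 and 25 bases before its start. Another window of Nlrp3 held none. A match shows only that the letters are there.

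The 10 genes spanned a wide range of levels. In every group Pycard was highest, at 83.7 ± 16.4 FPKM in WMW-H, 77.0 ± 7.53 in AOM/DSS and 87.0 ± 7.20 in control (SD, n = 5 each), and Nlrp3 was lowest. The order in control was Pycard, Nlrp6, Casp1, Casp8, Naip1, Casp4, Aim2, Nlrc4, Nlrp1b and Nlrp3. There the libraries of Casp4 and Aim2 overlapped, and those of the other neighbours did not. In AOM/DSS the order was Pycard, Nlrp6, Casp8, Naip1, Casp1, Aim2, Casp4, Nlrc4, Nlrp1b and Nlrp3, with overlap between Naip1 and Casp1 and between Casp4 and Nlrc4. In WMW-H it was Pycard, Casp8, Casp1, Naip1, Nlrp6, Aim2, Casp4, Nlrc4, Nlrp1b and Nlrp3, with overlap between Casp8 and Casp1 and between Naip1 and Nlrp6. Nlrp6 was thus second in AOM/DSS and control and below Pycard, Casp8, Casp1 and Naip1 in WMW-H.

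Tests were limited to genes that reached 1 FPKM in 5 or more libraries. This left 12917 genes and 9 of the 10, all but Nlrp3. Each comparison used limma on log2(FPKM + 1), calls were made at a Benjamini-Hochberg adjusted p under 0.05 across those 12917, and differences below are on that log2 scale unless given in FPKM. In AOM/DSS against control, 3 of the 9 genes were higher (Naip1, Aim2, Nlrc4) and 3 lower (Casp1, Casp4, Nlrp6), where 66.1% of all genes were called, 45.5% higher and 20.6% lower. Their median difference was -0.02, against 0.12 for all genes. In WMW-H against AOM/DSS, 7 were higher and 1, Nlrp6, lower, where 66.8% of all genes were called, 25.9% higher and 40.9% lower. The median was 0.38, against -0.07 for all genes. In WMW-H against control, 5 were higher and 2 lower, where 59.5% were called, 35.4% higher and 24.1% lower, with medians of 0.33 and 0.05. Groups with no overlap were found for 3 of the 9 on the higher and 3 on the lower side in AOM/DSS against control, where 52.9% of all genes had none (36.9% higher, 16% lower). For WMW-H against AOM/DSS they were found for 7 and 0, where 51.2% had none (18.8% higher, 32.3% lower). For WMW-H against control they were found for 5 and 2, where 42.3% had none (25.3% higher, 17% lower). The scaling shifted the split of all calls. The calls in AOM/DSS against control were 68.9% higher ones as deposited, 74.4% with TPM, 51.4% when scaled by median-of-ratios size factors and 47.5% under quantile normalization, and in WMW-H against control they were 59.5%, 59.1%, 50.6% and 48%. In WMW-H against AOM/DSS they were 38.8%, 32.6%, 47.5% and 49.6%, in the same order of scalings. All 3 groups of libraries enter the comparisons in pairs, so these counts share samples.

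**Figure D1:**
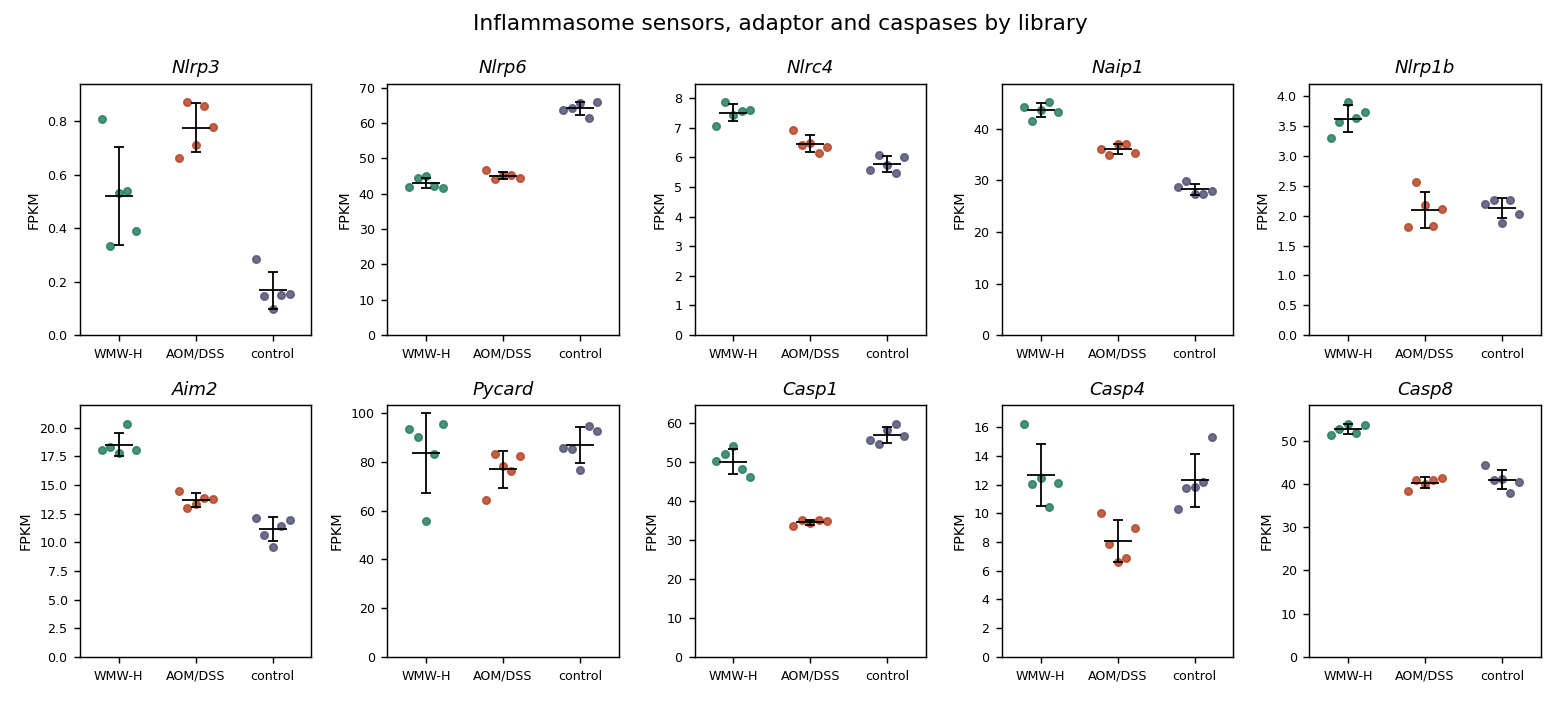
FPKM of the 10 genes in each library (points), with the mean and SD of each group of 5 (bars), for WMW-H, AOM/DSS and control on linear axes that start at 0. Casp1 and Casp4 were lowest in AOM/DSS, Nlrp1b and Casp8 were highest in WMW-H with AOM/DSS and control overlapping, and Nlrp6 was highest in control.

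Caspase-1, the enzyme that matures interleukin 1 beta and interleukin 18, had its lowest transcript levels in AOM/DSS. Casp1 (ENSMUSG00000025888) was at 50.2, 52.0, 54.1, 48.1 and 46.0 FPKM in WMW-H, at 33.7, 35.1, 34.2, 35.1 and 34.8 in AOM/DSS, and at 55.7, 54.5, 58.1, 59.7 and 56.7 in control. No library of one group reached into another. The gene fell in AOM/DSS against control by 0.70 (SE 0.04, limma adjusted p = 4.23e-11). It rose in WMW-H against AOM/DSS by 0.52 (SE 0.04, adjusted p = 3.51e-09) and stayed below control, with a difference of -0.18 (SE 0.04, adjusted p = 0.000574). 

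Casp4 (ENSMUSG00000033538), whose product senses lipopolysaccharide inside the cell, differed in the same way between AOM/DSS and the other groups. Its levels were 16.2, 12.04, 12.5, 10.4 and 12.1 FPKM in WMW-H, 10.02, 7.86, 6.58, 6.92 and 8.98 in AOM/DSS, and 10.3, 11.8, 11.9, 12.2 and 15.3 in control. All AOM/DSS libraries lay below all others, while WMW-H and control overlapped. Casp4 fell in AOM/DSS against control by 0.55 (SE 0.12, limma adjusted p = 0.000584). Set against AOM/DSS, WMW-H was higher by 0.59 (SE 0.12, adjusted p = 0.00033). The difference between WMW-H and control was 0.04, with a 95% interval from -0.21 to 0.29 (adjusted p = 0.811).

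The FPKM ratio of Casp1 to Casp4, which lie side by side, was 4.04 ± 0.60 in WMW-H, 4.39 ± 0.78 in AOM/DSS and 4.71 ± 0.63 in control (SD, n = 5 each). It did not pass an exact two-sided permutation test in AOM/DSS against control (p = 0.484), WMW-H against AOM/DSS (p = 0.429) or WMW-H against control (p = 0.135). This ratio was chosen after values had been seen. Casp12, the next coding gene, whose product is linked to stress of the endoplasmic reticulum, was at 2.71 ± 0.39, 2.02 ± 0.40 and 3.20 ± 0.62 FPKM in the same groups. It fell in AOM/DSS by 0.48 (adjusted p = 0.00103). In WMW-H it rose against AOM/DSS by 0.30 (adjusted p = 0.0215, 0.0062 to 0.065 over the alternatives). The rise was lost without WMW-H replicate 1 (0.0572) or AOM/DSS replicate 1 (0.065).

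Beside these falls stood those of 10 interferon-stimulated genes, among them Isg15, Ifit1 and Irf7. All 10 were called lower in AOM/DSS against control and all 10 higher in WMW-H against AOM/DSS, and 9 were lower in WMW-H against control. Over all genes these shares were 20.6%, 25.9% and 24.1%. In the opposite direction 45.5%, 40.9% and 35.4% of all genes were called in the same comparisons. The 10 genes summed to 428 to 454 FPKM in WMW-H, 208 to 216 in AOM/DSS and 700 to 736 in control. Of 7 tested T and NK cell markers, 6 were lower and 1 higher in AOM/DSS against control. In WMW-H, 2 were higher and 5 not called against AOM/DSS, and 5 were lower and 1 higher against control. Of the 6 epithelial markers, 4 (Cdx2, Krt20, Vil1, Krt8) were lower and 2 (Epcam, Cdh1) higher in AOM/DSS against control. In WMW-H against AOM/DSS, 3 (Epcam, Krt20, Cdx2) were higher, 2 (Cdh1, Krt8) lower and 1 (Vil1) not called. The part of any of these in the caspase levels was not tested.

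Caspase-8, which starts death-receptor apoptosis, holds back necroptosis and can itself cleave interleukin 1 beta and gasdermin D, was raised in WMW-H. Casp8 (ENSMUSG00000026029) was at 51.3, 52.8, 53.9, 51.9 and 53.6 FPKM in WMW-H, at 38.4, 40.8, 39.9, 41.0 and 41.5 in AOM/DSS, and at 44.4, 40.9, 41.2, 38.0 and 40.5 in control. Every WMW-H library lay above every library of AOM/DSS and control, which overlapped. The rise was 0.38 against AOM/DSS (SE 0.03, limma adjusted p = 5.72e-08) and 0.36 against control (SE 0.03, adjusted p = 1.72e-07). Between AOM/DSS and control the difference was -0.02, with a 95% interval from -0.10 to 0.05 (adjusted p = 0.586, 0.00257 to 0.906 over the alternatives). That comparison was called lower under size factors (-0.14, adjusted p = 0.00257) and under quantile normalization (-0.13, adjusted p = 0.00565). About 5.05% of the 50-base windows of its longest transcript in GENCODE M21 also occur in a predicted gene, Gm20257.

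Nlrp1b, another of the sensors, had the same order of groups. Nlrp1b (ENSMUSG00000070390) was at 3.30, 3.57, 3.90, 3.63 and 3.73 FPKM in WMW-H, at 1.81, 2.56, 2.18, 1.82 and 2.11 in AOM/DSS, and at 2.19, 2.26, 1.88, 2.27 and 2.02 in control. The WMW-H libraries stood clear of the rest, and AOM/DSS and control overlapped. It rose in WMW-H by 0.58 against AOM/DSS (SE 0.07, limma adjusted p = 1.26e-06) and by 0.57 against control (SE 0.07, adjusted p = 2.46e-06). The difference between AOM/DSS and control was -0.02 (95% interval -0.16 to 0.13, adjusted p = 0.838), and only after quantile normalization was it called (-0.17, adjusted p = 0.0445, 0.0445 to 0.993 over the alternatives). Its neighbour Nlrp1a, a close copy that shares part of its sequence, was at 0.08 ± 0.03 FPKM in WMW-H, 0.12 ± 0.03 in AOM/DSS and 0.10 ± 0.05 in control, too low to be tested.

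Naip1, Nlrc4 and Aim2 shared an order, with WMW-H highest and control lowest. Naip1 (ENSMUSG00000021640) encodes a receptor for the needle protein of bacterial type III secretion and works with NLRC4. Its levels were 44.3, 41.6, 43.7, 45.2 and 43.4 FPKM in WMW-H, 36.1, 34.9, 37.1, 37.1 and 35.4 in AOM/DSS, and 28.7, 29.9, 27.3, 27.4 and 28.0 in control. The 3 groups were fully separate. Naip1 rose by 0.34 in AOM/DSS against control (SE 0.03, limma adjusted p = 4.84e-08), by 0.27 in WMW-H against AOM/DSS (adjusted p = 1.38e-06) and by 0.61 in WMW-H against control (adjusted p = 5.11e-11).

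Nlrc4 (ENSMUSG00000039193), the partner that NAIP proteins activate, was at 7.07, 7.86, 7.43, 7.56 and 7.61 FPKM in WMW-H, at 6.92, 6.41, 6.47, 6.16 and 6.36 in AOM/DSS, and at 5.59, 6.08, 5.75, 5.48 and 6.01 in control. The groups did not overlap, but the gap between AOM/DSS and control was narrow. The rise of 0.14 in AOM/DSS against control (SE 0.04, limma adjusted p = 0.0111) was close to the median of 0.12 over all genes. It was lost with size factors (0.03, adjusted p = 0.521) and its direction turned after quantile normalization (-0.028, adjusted p = 0.62, the highest of the alternatives, which began at 0.00144). WMW-H was higher by 0.19 against AOM/DSS (adjusted p = 0.00125) and by 0.33 against control (adjusted p = 7.52e-06).

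Aim2 (ENSMUSG00000037860), a sensor of cytosolic DNA, was at 18.1, 18.4, 17.8, 20.3 and 18.1 FPKM in WMW-H, at 14.5, 13.0, 13.4, 13.9 and 13.8 in AOM/DSS, and at 12.1, 10.6, 9.61, 11.4 and 11.9 in control. Again no groups overlapped. Aim2 rose by 0.28 in AOM/DSS against control (SE 0.06, limma adjusted p = 0.000298), a call lost after quantile normalization (0.13, adjusted p = 0.0571, 8.18e-05 to 0.0571 over the alternatives). In WMW-H it was higher by 0.41 against AOM/DSS (adjusted p = 5.78e-06) and by 0.69 against control (adjusted p = 1.54e-08).

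Macrophage and monocyte markers were called higher in 7 of 8 cases in AOM/DSS against control and in 7 of 8 in WMW-H against control, with Ly6c2 lower in both. Between WMW-H and AOM/DSS, 1 was higher in WMW-H and 3 were lower. Of all genes, 45.5% were higher and 20.6% lower in AOM/DSS against control. The shares were 35.4% and 24.1% in WMW-H against control, and 25.9% and 40.9% in WMW-H against AOM/DSS. Neutrophil markers, of which 5 of 8 were tested, included S100a8, S100a9 and Csf3r, which passed the filter through the groups in which they were high. The sum of the 8 was 42.7 to 53.6 FPKM in WMW-H, 75.1 to 92.2 in AOM/DSS and 11.3 to 14.4 in control, where S100a8 was listed at 0. Fibroblast markers summed to 240 to 249 FPKM in WMW-H, 188 to 200 in AOM/DSS and 132 to 137 in control, the same order of groups as Naip1, Nlrc4 and Aim2. Of the single markers, only Pdgfra had means in that order. Col1a1 and Col1a2 were highest in AOM/DSS, and Dcn and Lum were lowest there. Of the 5, 3 were higher and 2 lower in AOM/DSS against control and likewise in WMW-H against AOM/DSS, and all 5 were higher in WMW-H against control. The part of these cells in the levels of Naip1, Nlrc4 and Aim2 was not tested.

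**Figure D2:**
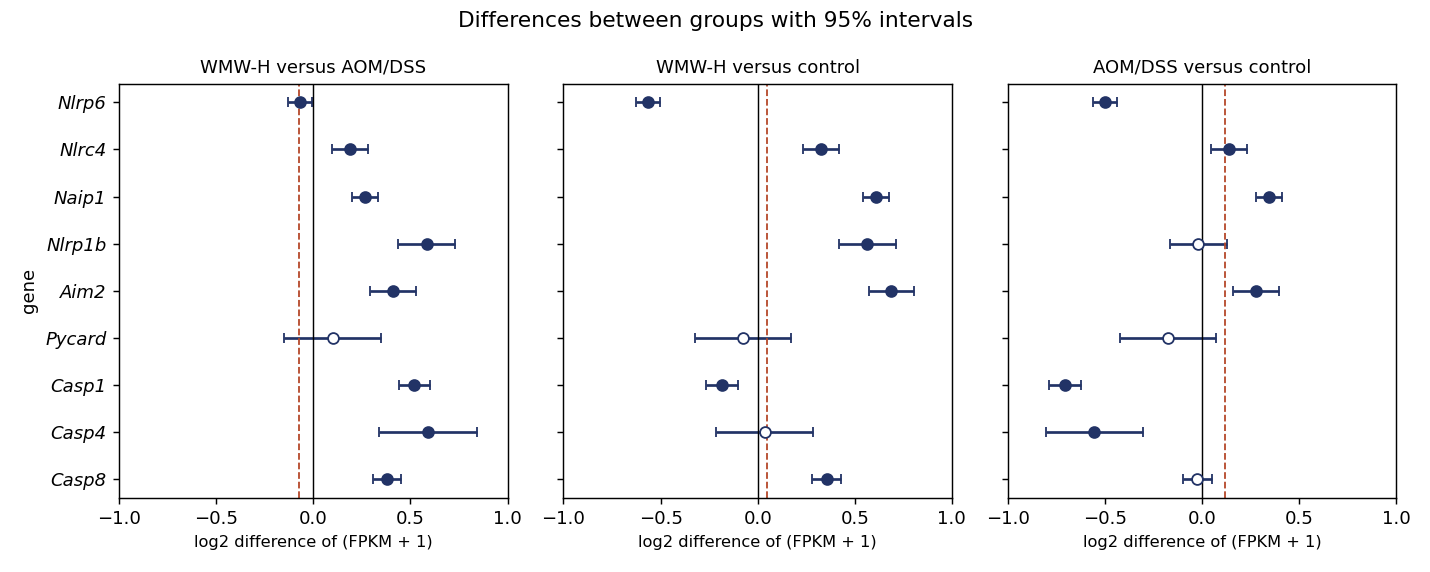
Differences between groups on the log2(FPKM + 1) scale for the 9 genes tested, with 95% intervals from limma (5 libraries per group). Filled points passed the threshold, open points did not, and the dashed line is the median of all 12917 genes. In WMW-H versus AOM/DSS, 7 of the 9 points are filled and lie above 0.

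The other genes of the Naip family, which respond to flagellin or to the secretion rod protein, did not follow Naip1 in AOM/DSS. Naip2 was at 30.6 ± 0.36 FPKM in WMW-H, 19.4 ± 0.74 in AOM/DSS and 21.0 ± 1.10 in control (SD, n = 5 each). Naip5 was at 9.29 ± 0.26, 7.24 ± 0.31 and 8.43 ± 0.25 FPKM in these groups, and Naip6 at 8.06 ± 0.14, 6.52 ± 0.33 and 7.84 ± 0.11. In AOM/DSS against control all 3 fell, by 0.11, 0.19 and 0.23 (limma adjusted p = 0.0135, 0.000363 and 5.35e-05), though the fall of Naip2 was lost with TPM (adjusted p = 0.16, 2.04e-05 to 0.16 over the alternatives). In WMW-H against AOM/DSS all 3 rose, Naip2 by 0.63, Naip5 by 0.32 and Naip6 by 0.27. Naip1 made up 47.6% ± 0.77 of the summed FPKM of the 4 genes in WMW-H, 52.2% ± 0.48 in AOM/DSS and 43.1% ± 1.35 in control. The groups were separate, and each of the 3 pairs gave an exact two-sided permutation p of 0.00794, the smallest that 5 against 5 libraries allow. This share, like the values of Naip2, Naip5, Il1rn and Nlrp1a, was chosen after the data had been seen.

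These copies share sequence, so their split is uncertain. In GENCODE M21, 32.5% of the 50-base windows of the longest Naip1 transcript occur in other genes, against 19.4% for Naip2, 36.8% for Naip5 and 21.5% for Naip6. Of the 1758 shared Naip1 windows, 1255 occur in Naip3, which is not analysed here and not part of the sum over the 4 genes. That sum was 91.6 ± 1.41 FPKM in WMW-H, 69.2 ± 1.68 in AOM/DSS and 65.5 ± 1.23 in control. The sums did not overlap between groups, and each pair again gave the smallest permutation p of 0.00794. Like the share, the sum was chosen after the data had been seen. For Nlrp3, Nlrp6, Pycard, Casp1 and Casp4 no window was shared, and for Nlrc4, Nlrp1b and Aim2 the shares were 1.13%, 2.08% and 0.789%.

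**Figure D3:**
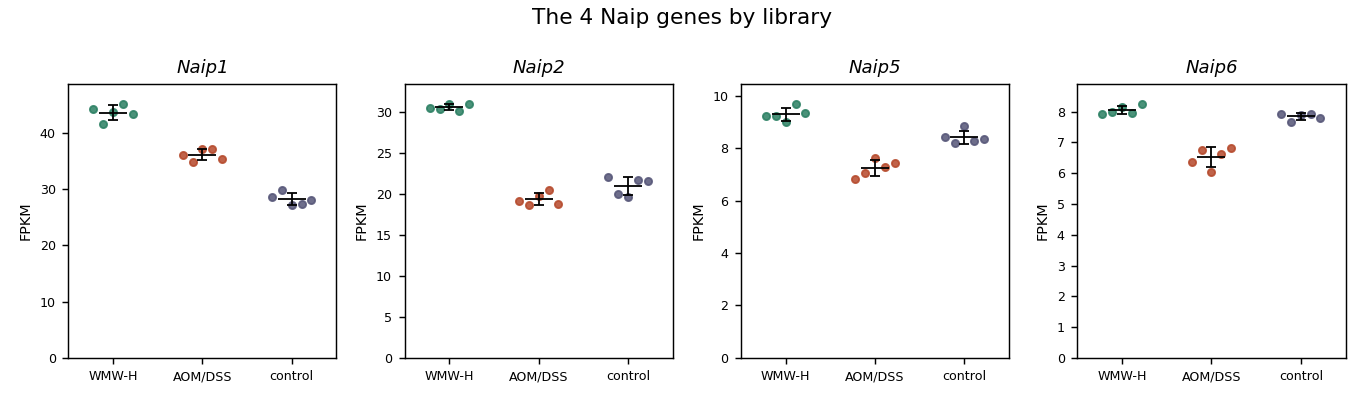
FPKM of Naip1, Naip2, Naip5 and Naip6 in each library (points), with the mean and SD of each group of 5 (bars), on linear axes that start at 0. All 4 were highest in WMW-H on average, and Naip1 was the one with AOM/DSS above control.

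Nlrp6, a sensor known for its high level in intestinal epithelium and for effects on goblet cell mucus and the microbiota, was lower in WMW-H and in AOM/DSS than in control. Nlrp6 (ENSMUSG00000038745) was at 41.9, 44.4, 44.9, 42.3 and 41.7 FPKM in WMW-H, at 46.8, 44.1, 45.2, 45.4 and 44.4 in AOM/DSS, and at 63.8, 64.2, 65.6, 61.4 and 65.9 in control. Every library of WMW-H and AOM/DSS lay below every control library. The fall was 0.50 in AOM/DSS against control (SE 0.03, limma adjusted p = 1.14e-10), and WMW-H differed from control by -0.57 (SE 0.03, adjusted p = 4.46e-11). WMW-H was also called lower than AOM/DSS, by a difference of -0.068 (adjusted p = 0.0476) near the median of -0.075 over all genes, with overlapping libraries. That call was lost under 15 of 24 alternatives (adjusted p from 0.00137 to 0.98), including size factors, where the difference was -0.001, and its sign turned after quantile normalization, to 0.016.

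Pycard (ENSMUSG00000030793), the adaptor that joins sensors to caspase-1, was not called in any comparison. It was at 93.7, 90.3, 55.6, 83.4 and 95.6 FPKM in WMW-H, at 64.5, 83.2, 78.4, 76.5 and 82.5 in AOM/DSS, and at 85.8, 85.2, 76.6, 94.9 and 92.6 in control. WMW-H replicate 3 was the lowest of all 15 libraries and the groups overlapped throughout. The differences were -0.18 in AOM/DSS against control (95% interval -0.42 to 0.07, limma adjusted p = 0.199), 0.10 in WMW-H against AOM/DSS (-0.15 to 0.35, adjusted p = 0.474) and -0.08 in WMW-H against control (-0.32 to 0.17, adjusted p = 0.595). Without WMW-H replicate 3, Pycard was called higher in WMW-H against AOM/DSS (0.24, adjusted p = 0.00806, 0.00806 to 0.801 over the alternatives). In AOM/DSS against control it was then called lower (-0.18, adjusted p = 0.0301, 0.0301 to 0.422 over the alternatives), a call also made with size factors (adjusted p = 0.033) and with only the groups compared (adjusted p = 0.0414).

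Nlrp3 (ENSMUSG00000032691), the sensor of potassium efflux and membrane damage, known chiefly from myeloid cells, was near the limit of detection. It was at 0.807, 0.332, 0.531, 0.540 and 0.388 FPKM in WMW-H, at 0.662, 0.870, 0.711, 0.857 and 0.776 in AOM/DSS, and at 0.286, 0.146, 0.099, 0.149 and 0.155 in control. With its longest transcript this amounts to about 24 to 65, 49 to 71 and 7 to 24 fragments per library in these groups. WMW-H and AOM/DSS both lay above control without overlap, and they overlapped with each other. Nlrp3 was 4.64-fold higher in AOM/DSS and 3.11-fold higher in WMW-H than in control, and each gave the smallest exact permutation p of 0.00794 (two-sided, not adjusted). WMW-H was lower than AOM/DSS by 0.23 on the log2(FPKM + 1) scale (exact permutation p = 0.0317, 0.00794 to 0.0714 over the alternatives), and this passed in 9 of 14 alternatives. It was lost without WMW-H replicate 2 (-0.19) or 5 (-0.20), or without AOM/DSS replicate 2 (-0.21), 4 (-0.21) or 5 (-0.23). The neutrophil and macrophage sums given above were also highest in AOM/DSS, but single markers varied. Lyz2, the largest part of the macrophage sum, was at 270, 347 and 127 FPKM in WMW-H, AOM/DSS and control. Csf1r, Cd68 and Cd14 also had their highest means in AOM/DSS, but Adgre1, Itgam and Fcgr1 in WMW-H and Ly6c2 in control. Of the neutrophil markers, only Cxcr2 had its highest mean in WMW-H (0.705 FPKM, against 0.627 in AOM/DSS). The part of these cells in the Nlrp3 difference was not tested.

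Among genes that carry the output of the inflammasome, cytokine precursors rose in AOM/DSS where Casp1 and Casp4 fell. Of 8 listed, 7 were tested, and in AOM/DSS against control 5 were higher (Il1b, Il18, Il1rn, Gsdmd, Ninj1) and 1 lower (Il18bp). Of all genes, 45.5% were higher and 20.6% lower. Il1b, the precursor of interleukin 1 beta, was at 5.27 ± 0.67 FPKM in WMW-H, 10.3 ± 0.78 in AOM/DSS and 1.26 ± 0.30 in control (SD, n = 5 each). It rose by 2.33 in AOM/DSS against control (limma adjusted p = 3.29e-13) and fell by 0.86 in WMW-H against AOM/DSS (adjusted p = 2.68e-07). Il18 was at 27.3 ± 0.77, 34.4 ± 3.06 and 12.8 ± 0.38 FPKM in the same groups, with a rise of 1.36 in AOM/DSS (adjusted p = 1.4e-13) and a fall of 0.32 in WMW-H against AOM/DSS (adjusted p = 2.36e-05). Both remained above control in WMW-H. The neutrophil sums given above and those of Paneth cell markers (394 to 421 FPKM in WMW-H, 903 to 980 in AOM/DSS and 73.1 to 76.2 in control) had the same order of groups, and the part of these cells in the levels of Il1b and Il18 was not tested.

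The antagonists of these cytokines differed in direction. Il1rn, which blocks the interleukin 1 receptor, was at 71.6 ± 6.47 FPKM in WMW-H, 54.8 ± 8.80 in AOM/DSS and 29.0 ± 4.87 in control, and rose in both steps, by 0.90 in AOM/DSS (limma adjusted p = 3.15e-06) and by 0.39 in WMW-H against AOM/DSS (adjusted p = 0.00689). Il18bp, which binds interleukin 18, was at 7.13 ± 0.72, 5.43 ± 0.50 and 13.6 ± 1.39 FPKM, and fell by 1.18 in AOM/DSS (adjusted p = 4.16e-10), with a rise of 0.34 for WMW-H over AOM/DSS (adjusted p = 0.000865). The FPKM ratio of Il18 to Il18bp was 3.86 ± 0.31 in WMW-H, 6.38 ± 0.79 in AOM/DSS and 0.95 ± 0.08 in control, and each pair gave the smallest exact permutation p of 0.00794. The ratio was chosen after its values had been seen. Gsdmd, the pore protein, was at 56.2 ± 1.24, 61.2 ± 2.31 and 49.8 ± 2.996 FPKM, and rose by 0.29 in AOM/DSS (adjusted p = 2.68e-06). Its fall of 0.12 in WMW-H against AOM/DSS (adjusted p = 0.00934, 0.000635 to 0.215 over the alternatives) was lost with size factors (-0.05, adjusted p = 0.215) and after quantile normalization (-0.06, adjusted p = 0.135).

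**Figure D4:**
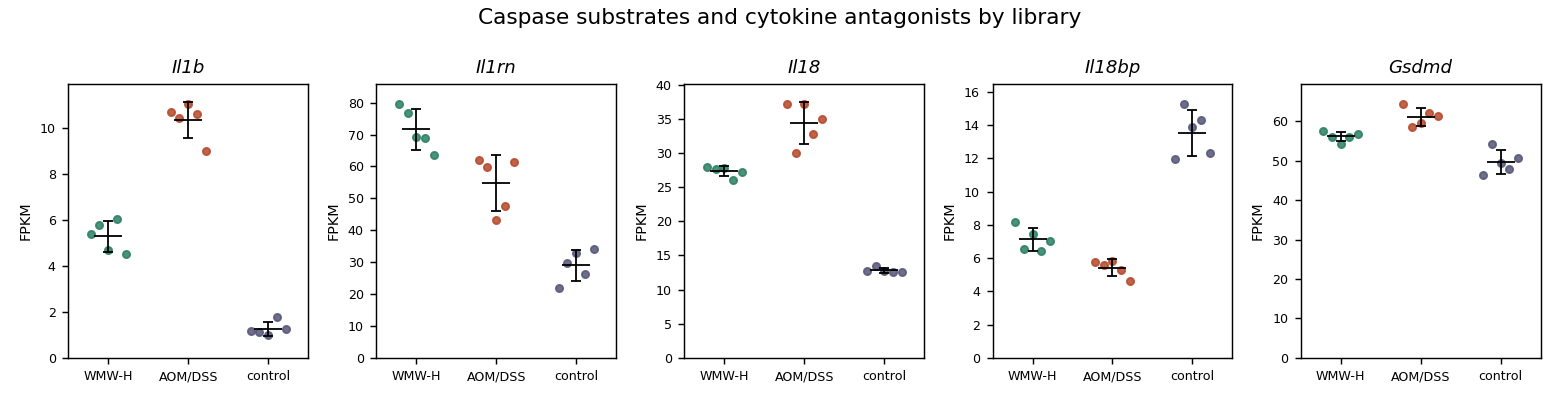
FPKM of Il1b, Il1rn, Il18, Il18bp and Gsdmd in each library (points), with the mean and SD of each group of 5 (bars), on linear axes that start at 0. Il1b, Il18 and Gsdmd were highest in AOM/DSS, Il1rn in WMW-H and Il18bp in control.

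Among other genes of the families of these sensors, not all of them sensors, falls outnumbered rises in AOM/DSS against control. Of 22 listed, 14 were tested, and in AOM/DSS against control 9 were lower (Ciita, Nlrc5, Ifi204, Naip6, Naip5, Ifi203, Ifi211, Mndal, Naip2) and 1 higher (Nlrx1), with a median of -0.21 against 0.12 for all genes. Of all genes, 20.6% were lower and 45.5% higher. Nlrc5, which drives MHC class I genes, was at 1.64 ± 0.25 FPKM in WMW-H, 1.18 ± 0.11 in AOM/DSS and 3.55 ± 0.37 in control. It fell by 1.06 in AOM/DSS (limma adjusted p = 1.4e-09). Ciita, the equivalent for MHC class II, was at 2.38 ± 0.24, 2.40 ± 0.14 and 5.77 ± 0.28 FPKM, and fell by 0.99 (adjusted p = 9.88e-11). Ifi204, a DNA-binding protein of the family of AIM2, was at 1.84 ± 0.23, 0.71 ± 0.32 and 1.86 ± 0.22 FPKM. Its difference in AOM/DSS against control was -0.76, but it passed the filter through WMW-H and control, in which it was high. Ifi211, at 2.30 ± 0.27, 0.92 ± 0.25 and 1.41 ± 0.27 FPKM in the same groups, passed it in the same way. Both genes are in the counts of this paragraph, and their part in those counts follows from the filter. Nlrx1, a mitochondrial member of the family, was at 8.95 ± 0.75, 11.8 ± 0.78 and 9.64 ± 0.72 FPKM, and its rise of 0.27 (adjusted p = 0.00104) was lost after quantile normalization (0.11, adjusted p = 0.16, the highest over the alternatives). Against AOM/DSS, WMW-H had 8 higher (Naip2, Naip5, Naip6, Ifi211, Ifi204, Ifi207, Nlrc5, Mndal) and 2 lower (Nlrx1, Nod1). In WMW-H against control, 4 were higher and 5 lower. The shares of all genes were 25.9% higher and 40.9% lower against AOM/DSS, and 35.4% and 24.1% against control.

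The other caspases also differed between groups. Casp6, a caspase of apoptosis, was at 25.8 ± 0.99 FPKM in WMW-H, 30.5 ± 1.97 in AOM/DSS and 17.7 ± 0.83 in control (SD, n = 5 each) and rose by 0.75 in AOM/DSS against control (limma adjusted p = 1.59e-10). Casp14, known from cornifying skin, was at 1.48 ± 0.19, 2.74 ± 0.31 and 0.07 ± 0.05 FPKM, and passed the filter through the groups in which it was high. Of 7 tested, 4 were higher (Casp14, Casp6, Casp9, Casp2) and 2 lower in AOM/DSS against control, 3 higher and 4 lower in WMW-H against AOM/DSS, and 4 higher and 0 lower in WMW-H against control. The shares of all genes were 45.5% higher and 20.6% lower, 25.9% and 40.9%, and 35.4% and 24.1% in the same order. Casp14 is among the higher genes of AOM/DSS and of WMW-H against control, and its part in those counts follows from the filter. In WMW-H against control limma's unadjusted 95% intervals of the 3 caspases not called all included 0.

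Around caspase-8, genes of necroptosis differed in opposite ways. Mlkl, the pore-forming executioner, was at 15.6 ± 0.84 FPKM in WMW-H, 8.97 ± 0.64 in AOM/DSS and 16.6 ± 0.90 in control. It fell by 0.82 in AOM/DSS against control (limma adjusted p = 3.06e-10), and was higher by 0.74 in WMW-H than in AOM/DSS (adjusted p = 1.86e-09). Zbp1, a sensor of Z-form nucleic acids and an interferon-induced gene, was at 54.4 ± 4.06, 28.7 ± 3.49 and 84.9 ± 1.55 FPKM and fell by 1.54 (adjusted p = 1.66e-12). Tnfsf10, the death ligand TRAIL, fell by 0.67 (adjusted p = 1.27e-07). Ripk3, the kinase that activates MLKL, went the other way, at 17.2 ± 0.88, 21.5 ± 0.98 and 16.03 ± 0.92 FPKM, with a rise of 0.40 (adjusted p = 6.64e-07). Of 10 tested, 5 were higher (Ripk3, Tnfrsf1a, Tradd, Fadd, Cflar) and 4 lower (Zbp1, Mlkl, Tnfsf10, Fas) in AOM/DSS against control, and 5 higher and 4 lower in WMW-H against AOM/DSS. The shares of all genes were 45.5% higher and 20.6% lower in the first of these comparisons, and 25.9% and 40.9% in the second. In WMW-H against control, 2 were higher and 3 lower, where 35.4% of all genes were higher and 24.1% lower. One of those 3, Tnfsf10 (-0.18, adjusted p = 0.0247, 0.00294 to 0.0746 over the alternatives), lost its call without WMW-H replicate 2 (0.0567) or 5 (0.0746), or without control replicate 2 (0.054) or 5 (0.057).

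Regulators of assembly were split. Of 19 listed, 18 were tested, with 9 higher and 6 lower in AOM/DSS against control, 8 higher and 5 lower in WMW-H against AOM/DSS, and 11 higher and 3 lower in WMW-H against control. The shares of all genes were 45.5% higher and 20.6% lower, 25.9% and 40.9%, and 35.4% and 24.1% in the same order. Lcn2, an iron-binding protein induced in inflammation, was at 26.1 ± 3.07 FPKM in WMW-H, 79.1 ± 3.26 in AOM/DSS and 4.88 ± 0.73 in control. It rose by 3.77 in AOM/DSS (limma adjusted p = 1.34e-16). Gbp2, a GTPase that exposes bacterial lipopolysaccharide to caspase-11, was at 17.4 ± 0.83, 10.2 ± 0.56 and 20.2 ± 0.59 FPKM and fell by 0.92 (adjusted p = 4.08e-12). Trim31, a ubiquitin ligase that acts on NLRP3, fell by 0.41 and Pstpip2 by 0.44. The lower genes also included Nek7, Serpinb1a and Brcc3, and the higher ones Dpp9, Txnip, Tnfaip3, P2rx7, Dpp8, Dhx9, Card19 and Pstpip1.

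Transcription factors that act on these genes moved in both directions. In AOM/DSS against control, 6 of 10 were lower, among them Irf7, Irf9 and Irf8, and 4 were higher (Rela, Nfkb1, Spi1, Irf2). Of all genes, 20.6% were lower and 45.5% higher. Rela, the p65 subunit of NF-kB, was at 21.3 ± 0.99 FPKM in WMW-H, 32.4 ± 1.21 in AOM/DSS and 23.1 ± 0.59 in control (SD, n = 5 each), with a rise of 0.47 in AOM/DSS (limma adjusted p = 4.48e-09) and a fall of 0.58 in WMW-H against AOM/DSS (adjusted p = 3.79e-10). Nfkb1 rose by 0.32 in AOM/DSS (adjusted p = 8.69e-06). In WMW-H against AOM/DSS, 4 were higher, among them Irf7 and Irf9, and 2 lower (Rela, Nfkb1), and in WMW-H against control 3 were higher and 7 lower. The shares of all genes were 25.9% higher and 40.9% lower, and 35.4% and 24.1%, in the same order. The fall of Nfkb1 in WMW-H against AOM/DSS (-0.15, adjusted p = 0.00978, 0.0015 to 0.195 over the alternatives) was lost with size factors (-0.08, adjusted p = 0.12) and after quantile normalization (-0.07, adjusted p = 0.195).

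The tested genes most like each of the 9 were found by the root mean square difference of their log2(FPKM + 1) deviations from their own means over the 15 libraries. Casp1 was nearest to Adgrg7 (0.06), Cdx2 (0.06), a transcription factor of intestinal identity, and Postn (0.06), a matrix protein, against a spread of 0.30 for Casp1 itself. For Casp8 they were Adss (0.04), Erp44 (0.05) and Tagln (0.05), and for Naip1 they were Nap1l1 (0.04), Cd38 (0.05) and Dennd6a (0.05). Nlrp6 was nearest to Rap1gap (0.06), Smim24 (0.06) and Acsf2 (0.06). Those for Aim2 were Vmp1 (0.08), Tm4sf20 (0.08) and Tmem139 (0.09), and those for Nlrc4 were Rpl23 (0.05), Lsm12 (0.05) and Traf6 (0.05). Nlrp1b had Ighv1-53 (0.08), Rpl35 (0.08) and Rps24 (0.09). The distances were largest for Casp4, with Ifi205 (0.16), Rbm7 (0.17) and Cavin2 (0.17), and for Pycard, with Fdx1 (0.10), Ndufb6 (0.11) and Rangrf (0.11). The spread of the gene itself was 0.18 for Casp8, 0.253 for Naip1, 0.255 for Nlrp6 and 0.294 for Aim2. For Nlrc4 it was 0.142, for Nlrp1b 0.286, for Casp4 0.33 and for Pycard 0.205. All these measures share the same 15 libraries.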

How the data were processed

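Poly(A) RNA of 15 colon libraries was sequenced. The authors deposited FPKM per gene, and StringTie 1.3.1, RSEM, HISAT2, Bowtie2 2.2.8 and fastp 0.18.0 are listed, with no role or order, in the submitters' processing notes. The genome build and annotation are not given in the sources used here. FPKM is scaled to the fragments of each library, so abundant transcripts that differ between groups take up depth and can shift the values of other genes.

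From the deposited FPKM, log2(FPKM + 1) was computed for genes that reached 1 FPKM in 5 or more libraries, and 1 model of the 3 groups was fitted in R 4.3.3 with limma 3.58.1 (mean-variance trend, Benjamini-Hochberg adjustment). A log2 difference on this scale understates the change of low genes. Nlrp3, below the filter, and ratios were tested by exact two-sided permutation. The fit was tested on simulated data before use. Depth was estimated from the steps of low values, with transcript lengths from GENCODE M21, where 88.8% of 8104 low values lay within 0.1 of a whole fragment (20% by chance). Intervals cover the spread between libraries.

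Members and lists were chosen with earlier results of these data known. Named were all members, every called gene of a list, values for up to 4 genes per list with the smallest p in AOM/DSS against control and up to 2 called the other way (some genes this rule names are not reported here), and the 3 tested genes nearest to each member. Alternatives were TPM, size factors, quantile normalization, another pseudocount, other filters, no trend, only the groups compared, a replicate block and leaving out each library. Figures were drawn with matplotlib 3.10.9.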

Additional observations from a re-analysis of the deposited data

Results flagged for a closer look

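In 120 groups of 5 libraries, from 40 genes, 5 had 1 library that stood apart by more than the 95% limit of Dixon's test, and chance gives about 1 in 20 such groups. Aim2 was at 20.3 FPKM in WMW-H replicate 4, against 17.8 to 18.4 in the other WMW-H libraries. Lcn2 was at 84.7 FPKM in AOM/DSS replicate 2, against 76.6 to 78.9 in the others. Among the controls, Il18 was at 13.5 FPKM in replicate 2, against 12.5 to 12.7. Nlrx1 was at 10.9 FPKM in control replicate 5, against 9.12 to 9.50. Ifi204 was at 1.48 FPKM in control replicate 3, against 1.89 to 2.02.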

How the results depend on the processing

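Over 120 comparisons of single genes, 2781 of 2844 values under an alternative kept their direction and side of the threshold, 49 lost a call, 12 gained one and 2 turned, namely Nlrc4 in AOM/DSS against control (-0.028) and Nlrp6 in WMW-H against AOM/DSS (0.016), both after quantile normalization. In AOM/DSS against control, quantile normalization left 1 of the 9 inflammasome genes higher (Naip1) and 5 lower, and size factors gave 5 lower. In WMW-H against AOM/DSS the count of 1 lower became 2 with no filter on low values (Nlrp3 and Nlrp6) and 0 with size factors, quantile normalization, no trend, only the groups compared or a replicate block. Leaving out 1 library gave 8131 to 8720, 8254 to 8617 and 7295 to 7663 genes called in AOM/DSS against control, WMW-H against AOM/DSS and WMW-H against control. It gave 3 to 3, 7 to 8 and 5 to 5 inflammasome genes higher, and 3 to 4, 0 to 1 and 2 to 2 lower. The replicate numbers did not pair the libraries: 15 correlations of same-numbered deviations ran from -0.0472 to 0.0298, and 2 of 15 libraries correlated best with their own number. The replicate block ended 2 calls, among them that of Nlrp6 in WMW-H against AOM/DSS (adjusted p = 0.0658), and changed no other call. The cause of these changes was not tested. Depth limits Nlrp3, with 7 to 71 fragments per library.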
